A study of Mus musculus with 4 samples.

Results

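Leukocytes of the lung were compared with leukocytes of the blood in mice that had received the sham operation, using 1 single-cell RNA library from each tissue. The comparison covered every cell that passed the quality filters, 11994 in sham lung and 12291 in sham blood, which makes 24285 of the 36501 kept cells of the series. A kept cell had at least 200 detected genes, at most 10% mitochondrial UMIs (unique molecular identifiers, each standing for 1 captured RNA molecule) and at most 50% haemoglobin UMIs. Female C57/Bl6 mice aged 6 to 8 weeks received saline into the spleen on day 0, followed by removal of the spleen, and all carried a subcutaneous B16F10 melanoma started from 250000 cells. Lungs and blood were taken on day 7. The sham animals were therefore tumour-bearing and splenectomised, and were not healthy controls. The other arm of the series, called the metastasis pair below, had 800000 B16F10 cells injected into the spleen in place of saline and the same subcutaneous tumour, and gives lung and blood libraries that share no sample with the sham pair. The number of mice behind each library, and whether lungs were perfused to remove blood, are not given in the sources used here.

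Lung and blood were prepared by different steps: lungs went through a filter and columns that remove dead cells, and blood through density centrifugation for cells carrying CD45, the surface protein of leukocytes. The series also names CD45 kits, and the sources used here do not tie them to a tissue, so it is not known whether lung cells were enriched for CD45. Tissue and handling cannot be told apart in this design. The lung holds a large pool of leukocytes inside its capillaries besides those in its tissue, so that a lung suspension is a mixture of marginated blood cells and resident cells. Lymphocytes in tissue are known for retention molecules such as CD69, which acts against the egress receptor S1PR1, whereas circulating cells express the egress programme of KLF2 and S1PR1. Genes of the immediate early class, among them the FOS and JUN family and the NR4A nuclear receptors, are transcribed within minutes of a signal and also during tissue dissociation.

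Haemoglobin made up 65.7% of all UMIs of the lung library and 43.7% of those of blood. Of 36125 and 20975 barcodes, 21410 and 7688 had under 200 genes, 583 and 258 had too many mitochondrial UMIs and 2138 and 738 too many haemoglobin UMIs. Kept cells had a median of 2735 UMIs outside haemoglobin in lung and 3863 in blood. The libraries shared 177 barcodes, 39 of them kept in both. With 1 library a side there is no replicate check, and every interval is a 95% interval for counting error only.

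B cells dominated the blood, and T and NK cells were the larger share of the lung. Cells were gated exclusively, by at least 1 UMI of Cd79a (B cell receptor signalling), Cd3e (T cell receptor complex), Ncr1 (the NK receptor NKp46) or Csf1r (the macrophage growth factor receptor) and none of the other 3. B cells were 4193 of the lung cells (35.0%, 34.1 to 35.8) and 7967 of the blood cells (64.8%, 64.0 to 65.7), a ratio of 0.539 (0.519 to 0.560). T cells were 3179 (26.5%) and 1805 (14.7%), a ratio of 1.80 (1.70 to 1.91).

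Among the 4 gates, NK cells showed the widest gap. They numbered 1317 in lung (10.98%, 10.4 to 11.6) and 196 in blood (1.59%, 1.38 to 1.83), so their share was 6.89 times higher in lung (5.92 to 8.04). The Csf1r gate went the other way, with 137 cells in lung (1.14%) and 479 in blood (3.90%), a ratio of 0.293 (0.241 to 0.355). The metastasis pair gave ratios of 0.861 for B, 2.14 for T, 13.5 for NK and 0.404 for Csf1r-gated cells, on the same side of equality in each gate. In blood of that pair the NK gate held only 35 cells.

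**Figure D1:**
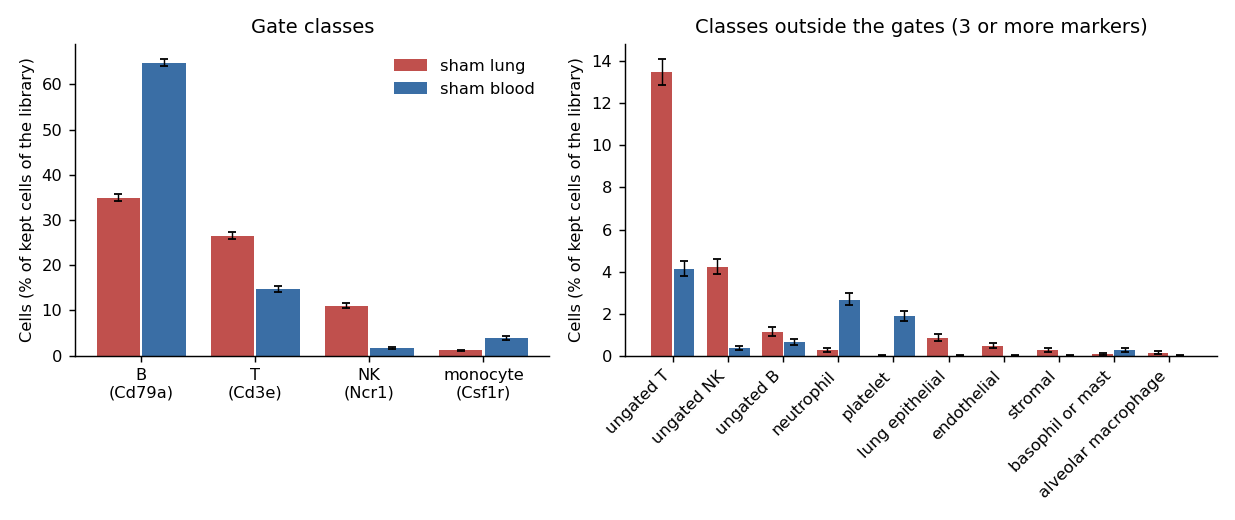
Share of kept cells (%) in the sham lung (red) and sham blood (blue) libraries, for the 4 gates (left) and for classes of cells outside the gates that carried 3 or more markers of a type (right, other scale). Bars start at 0 and error bars are exact 95% binomial intervals for 1 library each. B cells were 35.0% of lung and 64.8% of blood cells, and NK cells 10.98% and 1.59%.

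Cells that no gate captured were assigned by marker lists, with at least 3 markers of a type. T cells without a Cd3e UMI were 1619 in lung and 508 in blood, and NK cells without an Ncr1 UMI 506 and 42, in a lung library of lower depth per cell. Gates built from marker lists gave a T ratio of 2.05 and an NK ratio of 7.54, and requiring 2 UMIs of the gate gene gave 1.44 and 4.98. Neutrophils were 31 (0.258%) in lung and 328 (2.67%) in blood. Platelets were 0 in lung, which allows a share of up to 0.0308%, and 229 in blood. Lung epithelial (103), endothelial (56), stromal (30) and alveolar macrophage (16) cells were found in lung and none in blood, where a count of 0 allows up to 0.0300%. The lung library thus held cells other than leukocytes. Cells with more than 1 gate gene, 482 in lung and 561 in blood, were left out of the gates. A doublet caller scored 268 and 291 of them over 0.3. No doublets were removed beyond these mixed cells, and 186 and 385 gated cells with such a score were left out only as an alternative.

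Each gate carried the markers of its lineage. None of the 12 B markers in the B gate, 12 T markers in the T gate and 12 NK markers in the NK gate passed the 2-fold rule given below, and 1 of 15 monocyte markers in the Csf1r gate did, towards lung. Each list and its sum include the gate gene itself, whose presence in every gated cell is fixed by the gating rule. B markers summed to 15754 CPM in the lung B gate and 15933 in the blood B gate, T markers to 5343 and 4883 in the T gate, and NK markers to 26047 and 22161 in the NK gate. CPM (counts per 1000000) here divides a gene's UMIs by all UMIs of the gate other than haemoglobin. A gene counted as measured when lung and blood together held 100 UMIs or more of it and its mean level was 10 CPM or more. Median UMIs outside haemoglobin per cell in lung and blood were 2247 and 3500 in the B gate, 3721 and 5611 in the T gate, 2316 and 4124.5 in the NK gate and 3436 and 7356 in the Csf1r gate.

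RNA of other cells was present in both libraries, and its part in the results below was not tested. Lung epithelial markers summed to 3832 CPM in the lung T gate against 34.4 in blood and to 4025 against 117 in the NK gate, nearly all of it Scgb1a1, the club cell secretory protein, at 3666 and 3770 CPM. All 14 of these markers had UMIs in the lung B, T and NK gates, while Sftpc, Sftpa1 and Sftpd were at 0 in the same gates of blood. In the B gate NK markers summed to 226 CPM in lung and 22.1 in blood, with Gzma at 90.2 and 2.99, and T markers to 254 and 82.8. Red cell markers summed to 348 and 200 CPM in the B gate. Platelet markers ran the other way, at 1.54 and 81.1 CPM in the B gate, with Pf4 and Ppbp at 0 in lung. A gene is therefore named among the leading genes only if its level in the gate was at least 0.25 of its highest level in any other class of at least 20 cells in that library.

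A gene was called when it differed by at least 2-fold with an interval that excluded equality. In the B gate 220 of 7778 measured genes were called higher in lung (2.83%) and 35 lower (0.450%). In the T gate 321 of 7301 were higher (4.40%) and 50 lower (0.685%). In the NK gate 302 of 5558 were higher (5.43%) and 53 lower (0.954%). In the Csf1r gate 253 of 5526 were higher (4.58%) and 254 lower (4.60%). Calls towards lung were therefore about as frequent as calls towards blood only among Csf1r-gated cells. Of the genes called higher, 91, 123, 64 and 37 in these gates were below the 0.25 level of another class. The 4 gates come from the same 2 libraries and are not independent of each other. Counts of list members below are to be read beside the shares of all measured genes given here.

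A group of signal-responsive regulators was higher in lung in each lymphocyte gate: the NR4A nuclear receptors, the dual-specificity phosphatase Dusp5 and Crem, a transcription factor of the cAMP response. Nr4a1 stood at 335 CPM in lung B cells and 26.6 in blood B cells, a log2 ratio of 3.66 (3.55 to 3.77). In lung B cells 1598 of 4193 carried at least 1 Nr4a1 UMI. In T cells the level was 82.9 and 12.1 CPM (2.78, 2.52 to 3.06) and in NK cells 177 and 20.1 CPM (3.14, 2.47 to 3.90). Nr4a1 in lung T and NK cells was below the 0.25 level of ungated monocytes, at 1010 CPM. Nr4a3, a relative of the same family, was at 132 CPM in lung NK cells and 17.9 in blood NK cells (2.89, 2.18 to 3.71), and at 92.6 and 15.7 CPM in T cells (2.56). In B cells Nr4a3 (37.1 and 2.38 CPM, 3.96) and Nr4a2 (41.4 and 6.63 CPM, 2.64) were below 0.25 of the lung neutrophil and ungated NK levels. Nr4a2 was at 93.5 and 9.58 CPM in T cells (3.29), also below 0.25 of ungated NK cells (397 CPM), and at 384 and 125 CPM in NK cells (1.62). Dusp5, a nuclear ERK phosphatase, was at 141 and 23.2 CPM in B cells (2.60), 205 and 30.3 in T cells (2.76), 438 and 104 in NK cells (2.08) and 327 and 71.2 in Csf1r-gated cells (2.20).

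Crem was higher in lung in all 4 gates. Its levels in lung and blood were 244 and 30.9 CPM in B cells (log2 ratio 2.98, 2.87 to 3.08), 200.02 and 21.5 in T cells (3.22, 3.02 to 3.42), 303 and 44.6 in NK cells (2.76, 2.31 to 3.26) and 101 and 14.1 in Csf1r-gated cells (2.85, 2.28 to 3.41). The transcript was spread over many cells: 47.7% of lung T cells and 46.0% of lung NK cells carried at least 1 UMI. In the metastasis pair the Crem log2 ratios were 2.81, 2.20, 3.77 and 3.44 in the order B, T, NK and Csf1r gate.

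Fos, Jun and Junb were not called higher in any lymphocyte gate. Of the 24 measured members of a list of immediate early and dissociation genes, 8 were called higher and 0 lower in B cells, with a median log2 ratio of 0.32 against 0.05 over all measured genes. In T cells 9 of 22 were higher and 3 lower (median 0.47 against 0.11), in NK cells 6 of 19 higher and 1 lower (0.48 against 0.09), and in the Csf1r gate 7 of 22 higher and 1 lower (0.04 against 0.06). Fos stood at 197 CPM in lung and 204 in blood B cells (-0.05), and at 168 and 136 in T cells (0.30). Junb was at 866 and 729 CPM in B cells (0.25). Fosb, another FOS family member, was called in the Csf1r gate only, at 388 and 109.7 CPM (1.82), below 0.25 of lung stromal cells (3247 CPM). Jun, the partner of Fos in AP-1, was lower in lung T cells, at 150 and 333 CPM (-1.15), and in lung NK cells, at 73.1 and 201 CPM (-1.46). Dusp1, a phosphatase often induced by dissociation, was at 83.6 and 103 CPM in B cells (-0.31), 106 and 101 in T cells (0.07) and 189 and 128 in NK cells (0.56). These Fos, Jun and Dusp1 values stood below 0.25 of the level in another class. Within the list, the Nr4a genes, Dusp5 and Btg2 were thus called higher in each lymphocyte gate, and Fos, Junb and Dusp1 in none.

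Promoter sequence is shown for a pair of list members that were abundant in lung and differed in their ratio. Btg2, an antiproliferative gene, was at 576 and 229.9 CPM in lung and blood B cells (1.32), 444 and 183 in T cells (1.28), 929 and 302 in NK cells (1.62) and 1051 and 404 in Csf1r-gated cells (1.38), whereas Junb was called in none of the gates. Lung neutrophils held 2654 CPM of Btg2, more than 4 times the lung B and T cell levels. The 250 bases before each start are from RefSeq on GRCm38.p6, on the minus strand for both genes, at chr1:134079156-134079405 for Btg2 and chr8:84978749-84978998 for Junb. Capitals mark a cAMP response element (CRE), TGACGTCA, which reads the same on both strands.
Btg2: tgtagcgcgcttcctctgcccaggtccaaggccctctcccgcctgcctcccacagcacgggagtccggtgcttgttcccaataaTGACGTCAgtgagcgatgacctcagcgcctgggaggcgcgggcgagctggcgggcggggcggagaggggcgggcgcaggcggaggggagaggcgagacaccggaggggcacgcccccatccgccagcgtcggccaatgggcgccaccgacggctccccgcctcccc
Junb: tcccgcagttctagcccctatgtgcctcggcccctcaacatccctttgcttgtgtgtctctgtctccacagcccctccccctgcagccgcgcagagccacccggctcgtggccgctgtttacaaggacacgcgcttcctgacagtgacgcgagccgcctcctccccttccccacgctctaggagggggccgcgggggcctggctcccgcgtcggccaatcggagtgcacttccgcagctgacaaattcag
The Junb window held neither this motif nor the AP-1 motif TGACTCA or the E-box CACGTG on either strand. Jund and Klf6, also among the most abundant list members in lung lymphocytes, are not shown. The Jund window held none of these motifs and the Klf6 window an E-box. Across 22 list genes with an entry, the CRE was in the windows of 3 (Btg2, Dusp1 and Ppp1r15a), in 3 of 29 windows against 1.55% of 32851 windows in the table, the AP-1 motif in 1 of 29 against 4.46% and the E-box in 6 of 29 against 6.02%. Over whole gates, the CRE was in a window of 3.18% of genes called higher and 3.39% of measured genes in B cells, of 3.86% and 3.53% in T cells, of 6.47% (3.66 to 10.4) and 3.68% in NK cells and of 3.17% and 3.35% in the Csf1r gate. These are matches of letters and show no binding. Dusp1, with a CRE, was called higher in no lymphocyte gate and was called lower in the Csf1r gate, so the printed pair does not stand for the list.

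Some genes linked to retention in tissue were higher in lung lymphocytes, and Cd69 was not among them. Of the measured members of that list, 4 of 8 were called higher in B cells, 7 of 13 in T cells, 5 of 11 in NK cells and 4 of 9 in the Csf1r gate, and 0, 0, 1 and 1 lower. The median log2 ratios were 0.99, 1.62, 0.91 and 0.71, against 0.05, 0.11, 0.09 and 0.06 over all measured genes. Of all measured genes 2.83%, 4.40%, 5.43% and 4.58% were called higher in these gates. Crem, Odc1, Vps37b and other members entered the list with earlier results of these data known, so the count is not independent evidence of its direction. Vps37b, a subunit of the endosomal sorting complex, was at 687 and 101 CPM in B cells (2.76, 2.70 to 2.82), 1587 and 517 in T cells (1.62) and 1610 and 618 in NK cells (1.38). Cxcr4, the receptor for CXCL12, was at 138 and 60.8 CPM in B cells (1.19), 77.6 and 23.7 in T cells (1.71) and 112 and 48.0 in NK cells (1.23).

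Rgs2, a regulator of G-protein signalling, was higher in lung T cells (211 and 41.2 CPM, 2.36) and NK cells (326 and 128 CPM, 1.35), and stood at 159 and 97.3 CPM in B cells (0.71). Odc1, the rate-limiting enzyme of polyamine synthesis, was at 112 and 32.6 CPM in B cells (1.78) and 213 and 38.8 in T cells (2.46). Icos, a costimulatory receptor, was at 170 and 44.8 CPM in T cells (1.92), and was detected in 39.2% of lung and 20.8% of blood T cells, against 1.74% and 0.226% of B cells as background. After thinning each cell to 1000 UMIs the shares were 13.8% and 4.43%. Cd69, in contrast, was at 121 CPM in lung and 232 in blood T cells (-0.94, -1.04 to -0.85), at 247 and 265 in B cells (-0.10) and at 86.3 and 120.5 in NK cells (-0.48). Cd69 stood below 0.25 of the level of blood basophils or mast cells (1180 CPM) in these 3 gates.

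Few egress and homing genes reached the 2-fold limit, as was the case for measured genes in general. None of the 11 measured members of that list in B cells, 0 of 9 in NK cells and 1 of 11 in T cells was called higher, and none lower in these gates. Such counts are near the shares of all measured genes called higher, 2.83% in B, 5.43% in NK and 4.40% in T cells. The called gene was S1pr1 in T cells, at 456 CPM in lung and 221 in blood (1.05, 0.98 to 1.12), higher in lung. Its ratio was under 2-fold in 4 alternatives, among them CPM with haemoglobin (0.97) and scaling by the median of gene ratios (0.94). In B cells S1pr1 (266 and 147 CPM, 0.86, 0.79 to 0.93) and the lymph node homing receptor Ccr7 (595 and 319 CPM, 0.90, 0.85 to 0.95) were above equality and short of 2-fold. Klf2, the transcription factor of circulating lymphocytes, was at 1440 and 1496 CPM in B cells (-0.05), 909 and 1010 in T cells (-0.15) and 1055 and 1145 in NK cells (-0.12). In the metastasis pair Klf2 lay at -0.01, -0.50 and -0.53 in these gates.

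**Figure D2:**
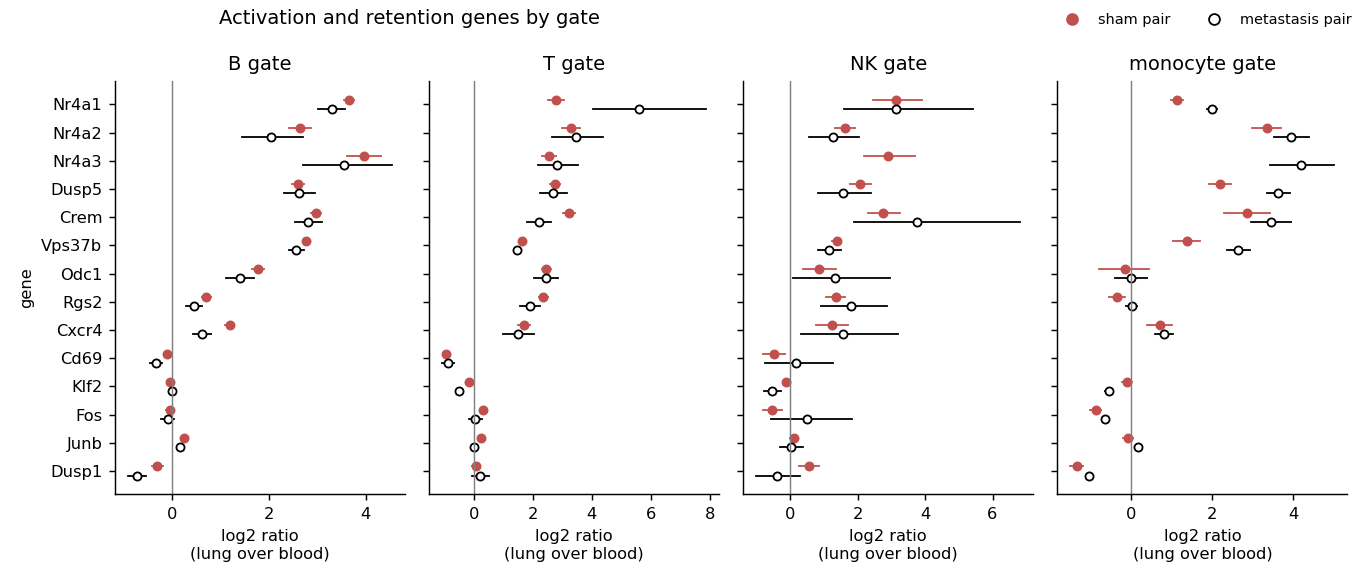
Log2 ratio of summed CPM, lung over blood, for 14 genes (rows) in each gate (panels), in the sham pair (filled) and the metastasis pair (open), with exact 95% intervals for counting error. A gene that was not measured, or at 0 in a library, is not drawn. Nr4a, Dusp5 and Crem lie to the right of 0, and Klf2 in the lymphocyte gates of the sham pair near it.

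Among the NF-kB response genes, 3 of 15 measured members were higher in lung B cells, 1 of 14 in T cells, 5 of 14 in NK cells and 6 of 18 in the Csf1r gate, with 1 lower in NK cells and 0 in the others. The medians were 0.44, 0.41, 0.95 and 0.68, against 0.05, 0.11, 0.09 and 0.06 over all measured genes. Of all measured genes 2.83%, 4.40%, 5.43% and 4.58% were called higher in the B, T, NK and Csf1r gates. A count of 0 or 1 in a list, here and below, is near that share. In NK cells the NF-kB subunit Rel was at 124 and 43.5 CPM (1.51), below 0.25 of ungated B cells (1109 CPM), and the survival gene Bcl2a1b, which has near-identical copies and is uncertain for that reason, at 68.3 and 16.7 (2.03). Respiratory chain genes were level: 0 of 30 members were called in each gate, with medians of 0.07 or closer to 0. MHC class I and antigen processing genes had 0 of 15 called in each lymphocyte gate, with medians of 0.19 in B, 0.19 in T and 0.11 in NK cells. Type I interferon genes had 1 of 17 higher in B, 3 of 20 in T and 2 of 11 in NK cells, all of them also below the 0.25 level of red cell barcodes except Irf7 in NK cells, at 82.7 and 24.5 CPM (1.75).

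**Figure D3:**
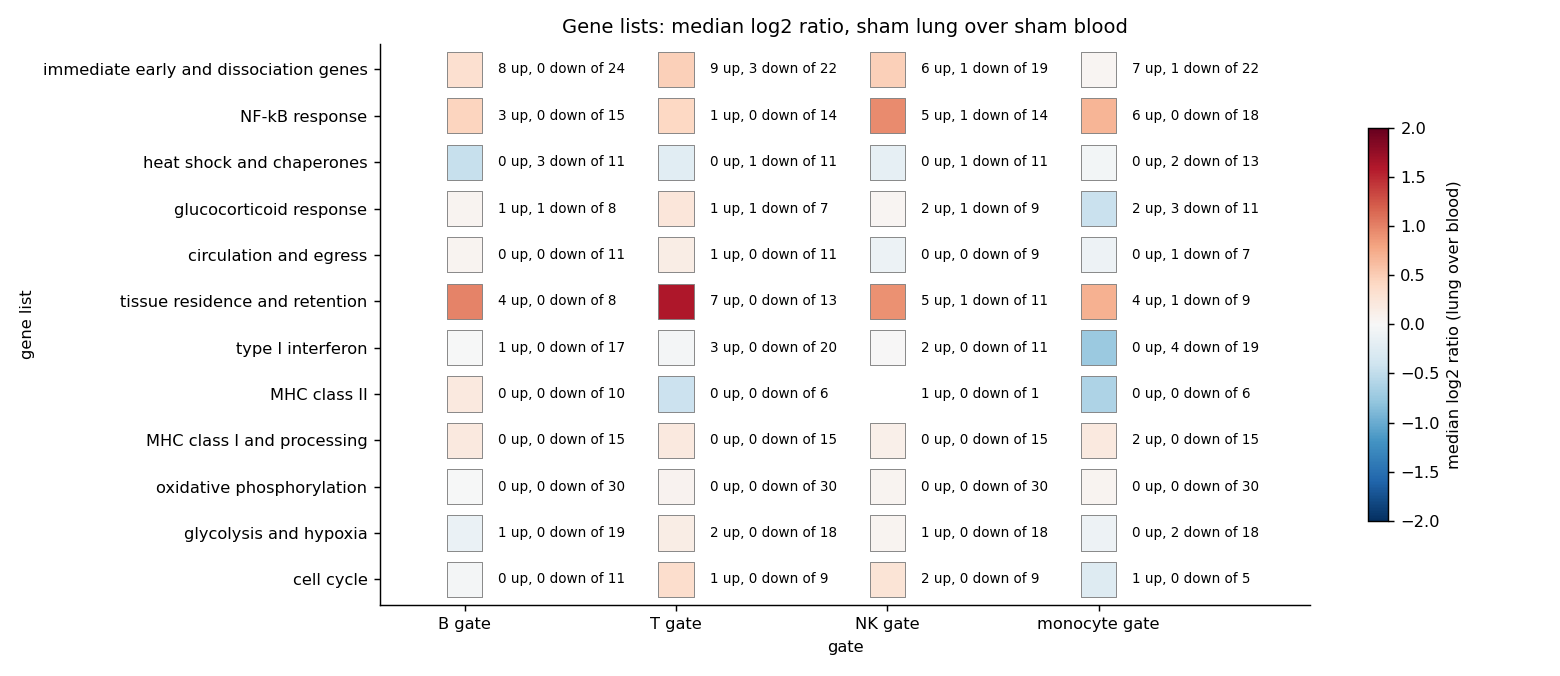
Median log2 ratio (lung over blood, colour) of 12 gene lists in each gate, with the number of measured members called higher (up) and lower (down) in sham lung. Squares are left out under 3 measured genes. Tissue residence and retention has the highest median in T cells, 1.62, and respiratory chain genes are near 0 in each gate.

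Some activation genes were higher in B cells of the lung, and no maturation gene was called. Of the 12 measured B cell activation genes 5 were called higher (Cd83, Cd86, Nr4a1, Egr1 and Egr3) and 0 lower (median 0.65). Cd83, a surface protein of activated B cells, was at 424 CPM in lung and 123 in blood (1.78, 1.72 to 1.84), and was detected in 52.8% and 33.9% of cells, against 1.45% and 1.11% of T cells, or 30.9% and 11.2% after thinning. The costimulatory ligand Cd86 was at 446 and 146 CPM (1.61, 1.55 to 1.67). None of 16 maturation genes and none of 9 transitional B cell genes was called, with medians of -0.05 and 0.07. With 2.83% of all measured B gate genes called higher and 0.450% lower, counts of 0 are near the share of all genes. The maturation list includes Ccr7, at 0.90. Shares of cells with Ighd, Fcer2a (CD23) and Cr2 (CD21) after thinning were 36.4% and 36.0%, 19.3% and 17.8%, and 5.19% and 6.79%.

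The other leading genes of lung B cells were of low abundance. Slc2a13, a myo-inositol transporter, was at 27.1 and 1.09 CPM (4.64, 4.14 to 5.18) and found in 161 lung and 31 blood cells. B3gnt7, a glycosyltransferase, was at 33.8 and 1.58 CPM (4.41, 4.00 to 4.86), and Asph, an aspartate hydroxylase, at 41.6 and 4.08 (3.35, 3.07 to 3.64). Jchain, the joining chain of secreted antibody, headed the list at 84.4 and 1.14 CPM (6.20, 5.74 to 6.71), but its 879 lung UMIs came from 12 of 4193 cells and 76.1% of them from 1 cell. Igha, the IgA heavy chain, was at 57.9 and 3.49 CPM (4.05), with 67.0% of its lung UMIs in 1 cell. Cells with a Jchain UMI were 0.286% of lung B cells (0.148 to 0.499) and 0.276% of blood B cells (0.173 to 0.418). After thinning the shares were 0.198% of 4044 lung and 0.0757% of 7925 blood B cells, which rests on few cells. Thinning ended the Jchain call (1.16), and gates that need not be exclusive that of Igha (0.95).

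Genes lower in lung B cells included Fcrl5, an Fc receptor-like protein of marginal zone and B1 cells, at 5.28 and 18.5 CPM (-1.81, -2.23 to -1.41), and the mitotic kinase Wee1 at 6.62 and 21.6 CPM (-1.70). The calcium-binding gene S100a6 was at 127 CPM in lung and 593 in blood B cells (-2.22), below the 0.25 level of blood neutrophils (4179 CPM). In the metastasis pair it was at 305 and 267 CPM (0.19). The chaperones Hspa8 (381 and 925 CPM, -1.28), Hsph1 (25.6 and 69.0 CPM, -1.43) and Dnaja1 (181 and 394 CPM, -1.12) were also lower in lung B cells, 3 of the 11 measured heat shock genes, with none higher. In the metastasis pair their log2 ratios were -0.43, -0.29 and -0.24. Hsph1 was also lower in lung T cells (-1.45) and NK cells (-1.67), and stood at -0.91 in Csf1r-gated cells. Thinning ended the Hsph1 call in NK cells (-1.16, -2.83 to 0.90). No measured heat shock gene was called lower in any gate of the metastasis pair.

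Lung T cells had higher levels of the inhibitory receptor gene Pdcd1 and of the costimulatory receptor genes Icos, Tnfrsf4 and Tnfrsf18. Pdcd1, which encodes PD-1, was at 19.97 CPM in lung and 0.759 in blood (4.72, 3.72 to 5.95), in 136 of 3179 and 7 of 1805 cells. Tnfrsf4 (OX40) was at 26.4 and 5.22 CPM (2.34, 1.92 to 2.78) and Tnfrsf18 (GITR) at 117 and 36.8 CPM (1.66, 1.499 to 1.83). Tnfrsf4, Tnfrsf18 and the transcription factor gene Ikzf2 (1.04) made up the 3 of 8 measured regulatory T cell genes that were higher, with 0 lower. The Ikzf2 call was lost under 7 of 12 alternatives, down to 0.89, and the metastasis pair gave 0.06. The defining gene of that lineage did not follow: Foxp3 was detected in 24 of 3179 lung T cells (0.755%, 0.484 to 1.12) and 39 of 1805 blood T cells (2.16%, 1.54 to 2.94), against 0.0954% and 0.0628% of B cells, and after thinning in 0.285% and 0.776%.

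Ramp3, which modifies calcitonin-family receptors, was at 94.9 and 7.40 CPM (3.68, 3.35 to 4.03) and detected in 25.2% of lung T cells. Neto2, an accessory protein of kainate receptors in neurons, was at 112 and 10.4 CPM (3.42, 3.14 to 3.72), and Abcb1b, a multidrug efflux pump, at 102 and 11.95 CPM (3.10, 2.83 to 3.37). Cables1, a cyclin-dependent kinase adaptor, was at 20.5 and 0.948 CPM (4.43, 3.53 to 5.51). In the metastasis pair Ramp3, Neto2 and Abcb1b had log2 ratios of 3.36, 3.16 and 2.83.

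Cells with Cd8a or Cd8b1 and no Cd4 were 50.9% of lung and 47.1% of blood T cells and, after thinning, 29.4% (27.8 to 31.0) and 25.7% (23.7 to 27.8). Cells with Cd4 alone were 15.3% and 21.8% and, after thinning, 5.79% (4.999 to 6.66) and 6.54% (5.44 to 7.78). In 32.4% and 29.4% neither was detected. Of 15 naive T cell genes 2 were higher, S1pr1 and the chromatin organiser Satb1 (1518 and 751 CPM, 1.01), and 0 lower, with a median of 0.01. The Satb1 call was lost under 5 of 12 alternatives, down to 0.86, and the metastasis pair gave 0.71. Of 21 effector and memory genes 4 were higher and 0 lower (median 0.19), namely Gzma, Tbx21, Maf and Il2rb, and each of these was below 0.25 of its level in another class, which for Gzma (99.4 and 10.9 CPM) was NK cells at 13846 CPM. Lower in lung T cells were Txnip, an inhibitor of glucose uptake, at 148 and 524 CPM (-1.82, -1.90 to -1.75), the growth regulator Myc at 9.14 and 30.4 CPM (-1.74) and the proapoptotic Bbc3 at 8.82 and 29.97 CPM (-1.76). Txnip was not particular to T cells. It was lower in lung in every gate, at -1.17 in B, -1.42 in NK and -2.32 in Csf1r-gated cells.

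Lung NK cells held more transcript of the cytotoxic genes Gzmb and Fasl than blood NK cells and less of the cytokine gene Ifng. Gzmb, which encodes granzyme B, was at 1232 and 491 CPM (1.33, 1.19 to 1.47), in 82.8% and 66.3% of cells, or 61.3% and 32.3% after thinning, against 1.22% and 0.0126% of B cells before thinning. Fasl, the death receptor ligand, was at 324 and 141 CPM (1.21, 0.94 to 1.48). In the metastasis pair, with 35 blood NK cells, 0 of 19 measured receptor and cytokine genes, a list that holds Fasl, were called higher. Other cytotoxic genes, Gzma and Prf1, were not called, and Gzma was detected in 98.9% of lung and 98.0% of blood NK cells. Ifng, which encodes interferon gamma, was lower at 68.6 and 176 CPM (-1.36, -1.66 to -1.06), as was the chemokine Ccl3 at 110.3 and 327 CPM (-1.57, -1.79 to -1.34), although Ccl3 in blood NK cells lay far below basophils or mast cells (11431 CPM). Thinning took Ifng just under the 2-fold limit (-0.996), and in the metastasis pair it was at -0.05.

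Irf8, a transcription factor of myeloid and lymphoid development, was at 1632 CPM in lung and 341 in blood NK cells (2.26, 2.09 to 2.43), and at 1.21 in the metastasis pair. It was detected in 93.7% of lung NK cells. Of the 15 mature NK genes 2 were higher, Irf8 and Gzmb, and 1 lower, Prdm1, at 33.6 and 70.3 CPM (-1.07), whose call was lost under 4 alternatives. Of 10 immature NK genes 0 were higher and 2 lower, Ltb and Il7r, both far below their level in B or T cells. Among 19 receptors and cytokines 1 was higher (Fasl) and 3 lower (Ifng, Ccl3 and the adhesion receptor Cd226), and the killer-cell receptors of the Klra family, whose near-identical copies share reads, lay between -0.33 and 0.26 in log2 ratio.

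The genes with the widest ratios in NK cells were the immediate early relative Ier5l (51.8 and 3.35 CPM, 3.95, 2.38 to 6.24), the lysosomal peptide transporter Abcb9 (66.2 and 4.46 CPM, 3.89, 2.51 to 5.78) and the magnesium transport gene Cnnm2 (344 and 25.7 CPM, 3.74, 3.15 to 4.41). Cnnm2 was detected in 614 of 1317 lung NK cells and 19 of 196 blood NK cells. Abcb1b followed at 299 and 24.5 CPM (3.61, 3.00 to 4.29), and the angiogenic factor Vegfa at 92.9 and 8.92 CPM (3.38, 2.38 to 4.60). Only 3 and 4 UMIs stand behind the blood values of Ier5l and Abcb9, and thinning ended the Ier5l call (0.30). The sialic acid hydroxylase Cmah was lower in lung, at 25.8 and 74.7 CPM (-1.54, -2.01 to -1.05).

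Cdk8 and Cmss1 were higher in blood in each of the 4 gates, by a similar factor. Cdk8, a kinase of the Mediator complex, was at 254 CPM in lung and 1361 in blood B cells (-2.42), 287 and 1615 in T cells (-2.49), 291 and 1634 in NK cells (-2.49) and 211 and 968 in Csf1r-gated cells (-2.20). Cmss1, a ribosomal small subunit factor, was at 1858 and 5745 CPM in B cells (-1.63), 2082 and 7285 in T cells (-1.81), 2108 and 6843 in NK cells (-1.70) and 1479 and 4546 in Csf1r-gated cells (-1.62). The 4 gates share the same 2 libraries, so the similar ratios of both genes are not repeated observations. Gm42418, a gene model that overlaps ribosomal RNA repeats, moved with Cdk8 and Cmss1: it stood at 12121 and 40956 CPM in B cells (-1.76), 13131 and 49224 in T cells (-1.91), 13554 and 45071 in NK cells (-1.73) and 14375 and 54712 in Csf1r-gated cells (-1.93). Lars2, a mitochondrial leucyl-tRNA synthetase, was at 299 and 646 CPM in B cells (-1.11), and missed the 2-fold limit in the Csf1r gate (-0.87). AY036118, another gene model over ribosomal repeats, had log2 ratios of -0.42, -0.37, -0.44 and -0.12 in the order B, T, NK and Csf1r gate, and Filip1l, whose locus overlaps Cmss1, -0.47, -0.14, 0.14 and -0.06, with no call. Gm42418, Lars2, AY036118 and Filip1l were looked up after Cdk8 and Cmss1 were seen, and the part of the ribosomal locus in the Cdk8 and Cmss1 values was not tested. In the metastasis pair Cdk8 was at -2.21, -2.11 and -2.16 in B, T and NK cells, and Gm42418 at -0.92, -0.99 and -0.64.

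**Figure D4:**
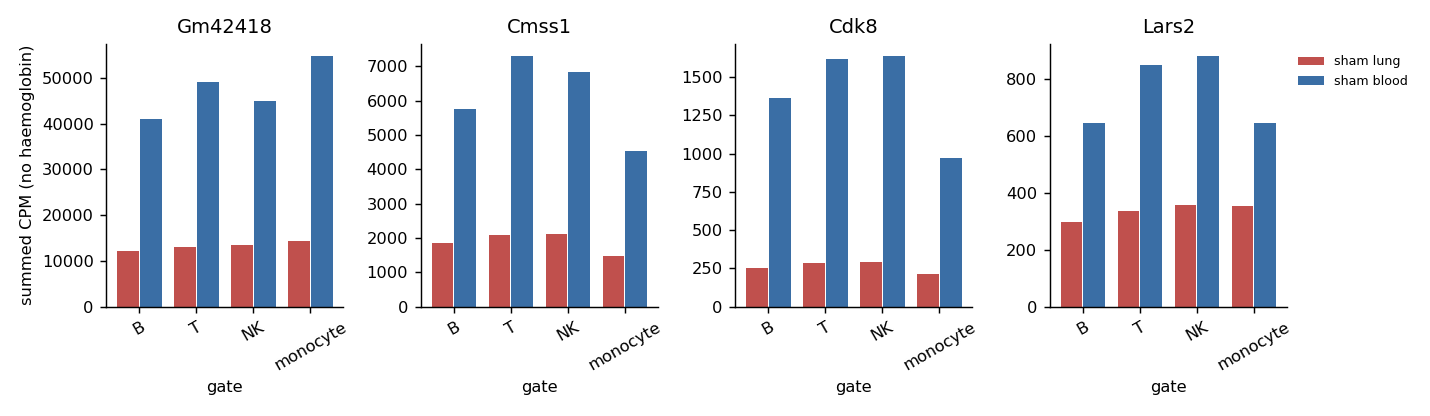
Summed CPM without haemoglobin of Gm42418, Cmss1, Cdk8 and Lars2 (panels, each with its own scale from 0) in the 4 gates of sham lung (red) and sham blood (blue), 1 library each and no error bar. The blood bar is the taller in every gate, with 287 and 1615 CPM for Cdk8 in T cells.

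The Csf1r gate was not a pure monocyte population, and its makeup differed between tissues. Non-classical (patrolling) monocyte markers, at least 2 of them, were found in 93 of 137 lung cells (67.9%, 59.4 to 75.6) and 215 of 479 blood cells (44.9%, 40.4 to 49.5), and classical (inflammatory) markers in 41 (29.9%) and 235 (49.1%). At least 2 neutrophil markers were found in 12 lung and 187 blood cells (8.76% and 39.0%), at least 2 platelet markers in 1 and 173 (0.730% and 36.1%), and at least 2 dendritic cell markers in 0 and 26. At least 2 alveolar macrophage markers were found in 12 lung cells and 0 blood cells. Neutrophil markers summed to 2520 CPM in the lung gate and 11601 in the blood gate, with Ltf at 0 in both, platelet markers to 45.4 and 729, with 8 of 11 at 0 in lung, and alveolar macrophage markers to 4377 and 957. Most of the alveolar macrophage sum in both tissues was Chil3, which is also in the classical monocyte list and whose levels are given below. Values are also given without cells that carried 2 or more markers of macrophages, dendritic cells, neutrophils or platelets, a choice made after the data were seen, which left 109 lung and 205 blood cells. That step took out 20.4% of the lung and 57.2% of the blood cells of the gate, and the part of depth in it was not tested. On those cells the share ratio was 0.496 in place of 0.293, and 95 and 71 of 3208 measured genes were called higher and lower in place of 253 and 254.

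Several of the widest ratios came from the left-out cells. Kcnip4, a potassium channel-interacting protein, was at 866 CPM in lung and 0.797 in blood (3 UMIs, log2 ratio 10.09, 8.53 to 12.37), but all 496 lung UMIs came from 12 cells, and none was left among the 109. Nav2, a cytoskeletal regulator, was at 155 and 3.72 CPM (5.38) and only 4 lung and 6 blood UMIs were left of 89 and 14. Chil3, a chitinase-like protein of alveolar macrophages and classical monocytes, was at 2346 and 825 CPM (1.51) and turned to 529 and 648 CPM (-0.29). The acute-phase gene Saa3 was at 1.75 CPM in lung, from 1 UMI, and 61.6 in blood, a log2 ratio of -5.14 (-10.45 to -2.65), from 5 blood cells, with 94.0% of the blood UMIs in 1 cell. Without the left-out cells 1 Saa3 UMI remained in lung and none in blood.

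Other genes kept their direction in both forms of the gate, although Crem, Mpp7 and Cnnm2 had fewer than 100 UMIs without those cells. Crem had log2 ratios of 2.85 and 3.07 with and without those cells, Nr4a2 3.34 and 3.66, and Cd83 2.75 and 2.19. Cd14, the lipopolysaccharide co-receptor, was at 555 and 100.2 CPM (2.47, 2.25 to 2.69) and, without those cells, at 445 and 50.2 (3.15). Thbs1, which encodes thrombospondin 1, was at 623 and 197 CPM (1.66) and at 682 and 52.8 (3.69). Mpp7, a membrane scaffold protein, was at 292 and 18.6 CPM (3.97, 3.56 to 4.39) and at 194 and 10.7 (4.18), and Cnnm2, also a leading gene of lung NK cells, at 135 and 14.1 CPM (3.26) and at 120 and 8.70 (3.78). Txnip was lower in lung in both forms, at 54.1 and 270.5 CPM (-2.32, -2.89 to -1.81) and at 45.5 and 195 (-2.10).

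**Figure D5:**
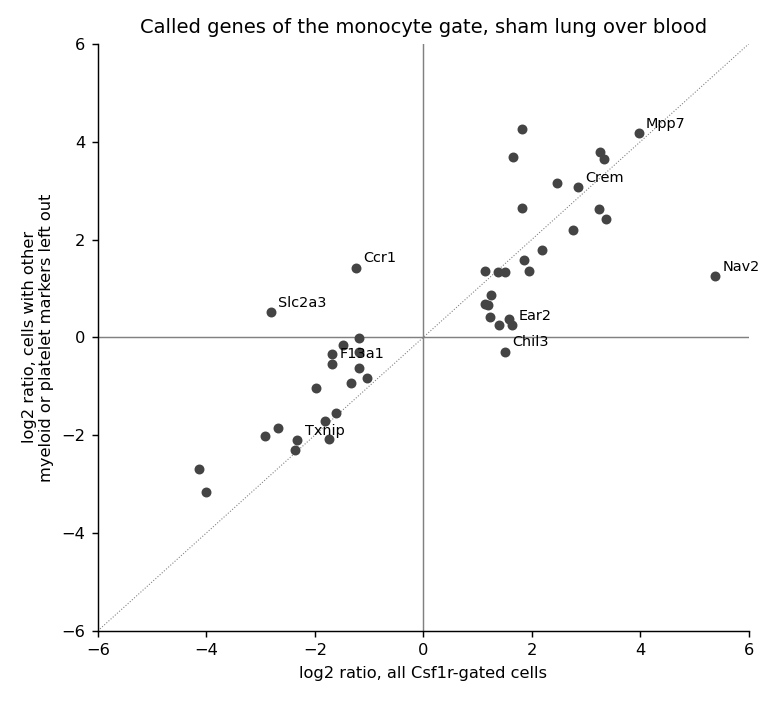
Log2 ratio (lung over blood) of the called and named genes of the Csf1r gate in all gated cells (horizontal axis) against the ratio with cells carrying other myeloid or platelet markers left out (vertical axis), 1 point a gene, dotted line for equal values. Genes with 3 UMIs or fewer in both libraries after that step (Kcnip4, Saa3 and Prg4) are not drawn. Nav2 drops from 5.38, Chil3 falls below 0 at -0.29, and Mpp7 and Crem stay near the line.

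Monocyte subset genes were called in the whole gate and not in the reduced one. Of 18 non-classical genes 3 were higher in lung and 0 lower (median 0.67), namely Nr4a1 at 864.5 and 393 CPM (1.14), the sialomucin Spn at 347 and 153 CPM (1.19) and the ribonuclease Ear2 at 592 and 191 CPM (1.63). Of 15 classical genes 4 were lower, including the transglutaminase F13a1 at 134 and 430 CPM (-1.68) and the proteoglycan Vcan at 43.7 and 99.9 CPM (-1.19), and 1, Chil3, was higher. Without the left-out cells 0 of 18 and 0 of 13 were called and the medians were 0.20 and 0.28. Short of 2-fold, the reduced gate gave 0.69 (0.52 to 0.85) for Nr4a1, 0.66 (0.41 to 0.91) for Spn and -0.54 (-0.95 to -0.14) for F13a1. Of 19 interferon genes 4 were lower and 0 higher (median -0.75), and without those cells 0 of 10 were lower and 1 higher (median 0.14). Dusp1 was at 636 and 1604 CPM (-1.34), and at -0.93 without them.

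The metastasis pair allowed the same genes to be read in libraries that shared no sample with the sham pair. Of the genes called higher in sham lung that were measured there, 190 of 192 in B cells, 255 of 256 in T cells, 147 of 148 in NK cells and 223 of 236 in the Csf1r gate had the same sign, and 130, 177, 90 and 135 were called higher there too. The shares of all measured genes called higher in that pair were 2.60%, 4.83%, 7.17% and 5.05%. Of the genes called lower, 27 of 29, 35 of 36, 16 of 19 and 215 of 232 had the same sign and 13, 15, 4 and 100 were called lower, against 0.542%, 0.586%, 0.964% and 4.94% of all measured genes. Called in the opposite direction there were 1 of the genes lower in sham lung in each gate and 3 of the genes higher in the Csf1r gate. The same preparation steps were used for lung and for blood in both arms, so this shows how the tissues differed in each pair and does not separate tissue from handling.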

How the data were processed

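The authors deposited whole-number UMI counts of 32285 genes for each barcode, which Cell Ranger 7.0.0 wrote per the file headers and which show no scaling. The submitters' processing notes name GRCm38.p6, Seurat 4.3.0.1 and R 4.3.1 without their roles. No barcode in the files had under 500 UMIs.

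UMIs were summed per gate and library and divided by the gate's UMIs without haemoglobin. Shares carry exact Clopper-Pearson intervals, and a ratio of counts an exact interval from the binomial law of one count given the sum of both. A count of 0 was set to a floor of 3 counts per library. No p-value was computed, since each group has 1 library. Doublets were scored with Scrublet in scanpy 1.11.5 and left out only as an alternative. The calculation was tested on simulated data. Python 3.11.15, numpy 2.4.6, scipy 1.17.1, pandas 2.3.3 and matplotlib 3.10.9 were used.

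Named genes were, per gate, the 6 highest and 6 lowest called genes that met the 0.25 level, without ribosomal, mitochondrial, haemoglobin, receptor segment and unnamed genes and markers of other types, up to 4 members of each of 26 lists, and 11 genes always reported. Btg2, Jun, Egr1, Icos, Vps37b in T cells, Rgs2 in B cells, Nr4a2 in NK cells, Gm42418, Lars2, AY036118 and Filip1l fall outside this rule and were chosen after their values were seen. The gates, 16 marker lists, gene lists and rules were chosen with earlier results of these data known. Alternatives were other cell filters, gates, thinning to 1000 UMIs (448 lung and 282 blood cells below that depth left out), doublet removal, scalings and expression filters. Mx1 and Ly6a2 were not analysed here.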

Additional observations from a re-analysis of the deposited data

Results flagged for a closer look

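Among the genes named for the Csf1r gate, 2 were called in opposite directions in the sham and metastasis pairs, and the difference between the pairs was not tested. Mt1, a metal-binding metallothionein, was at 416 CPM in sham lung and 43.8 in sham blood (log2 ratio 3.25), and at 121 and 329 CPM in the metastasis pair (-1.45). It was detected in 37 of 137 sham lung cells, and 28.2% of its UMIs there came from 1 cell. Chil3 was at 2346 and 825 CPM in the sham pair (1.51) and at 882 and 2785 CPM in the metastasis pair (-1.66). Cells with at least 2 alveolar macrophage markers were 12 of 137 in the gate of sham lung (8.76%) and 8 of 382 in that of metastasis lung (2.09%), and cells with at least 2 neutrophil markers were 39.0% of the gate in sham blood and 66.8% in metastasis blood.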

How the results depend on the processing

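No paired analysis was possible because each group has 1 library, and no replicate could be left out. Each share ratio stayed on its side of 1 under every alternative run. The B ratio was 0.513 with at least 400 genes and at most 5% mitochondrial UMIs, 0.507 with 2 UMIs of the gate gene, 0.515 with gates by marker lists and 0.623 among gated cells. In the same order the T ratio was 1.67, 1.44, 2.05 and 2.08, with 1.64 for gates that need not be exclusive and 2.31 after thinning. The NK ratio was 4.98 with 2 UMIs and 8.15 after thinning, and the Csf1r ratio 0.236 with 2 UMIs and 0.496 without cells carrying other myeloid or platelet markers.

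With at least 20 UMIs and no CPM minimum, which tests more genes, 816 and 320 genes were higher and lower in B cells, 905 and 326 in T, 557 and 169 in NK and 591 and 387 in Csf1r-gated cells. After thinning, which leaves fewer genes measured, the counts were 184 and 21 in T, 139 and 18 in NK and 7 and 22 in the Csf1r gate. Gates that need not be exclusive gave 213 lower genes in T and 144 in NK cells, and a total without mitochondrial, ribosomal and the 20 most abundant genes gave 89 lower in NK cells. Leaving out cells with other markers gave 95 higher and 71 lower in the Csf1r gate. The other 98 share and gene count values lay within their interval or 1.5 times the main count.

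Of 157 called values of named genes 90 kept their call under all alternatives that gave a value, 61 lost it under at least 1 and 14 changed sign under at least 1. In 12 cases both libraries had 3 UMIs or fewer and no value was given. Thinning gave Isg15 -0.10 and Mcm3 -0.16 in NK cells, and in the Csf1r gate Ddx60 0.998, Cdh23 0.15, Hist1h2ae 0.32, Phospho2 0.73, Itga1 0.41, Xaf1 0.51 and Hk1 0.32. Non-exclusive gates gave Cd74 -1.83 and Il7r 0.18 in NK cells, and marker-list gates gave Cd74 -0.85. Without cells carrying other markers, a choice made after seeing the data, Slc2a3 was 0.52, Chil3 -0.29 and Ccr1 1.42 in the Csf1r gate. The cause was not tested. Thinning also ended the call of Yes1 (0.40) in NK cells. The blood NK gate (196 cells) and the lung Csf1r gate (137 cells) set the widest intervals.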
